A study of Mus musculus with 12 samples.

Results

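The TET dioxygenases Tet1, Tet2 and Tet3 and the DNA glycosylase Tdg were chosen by gene symbol, and they are 4 of the 26061 genes in the deposited expression table. All 4 passed the filter on low values that left 14185 genes tested. The 12 poly(A)-selected RNA-seq libraries came from mouse embryonic stem cells (ESCs) whose endogenous Tet2 was knocked out (Tet2 KO) and which stably carried a PiggyBac construct for WT TET2 or for a catalytic mutant with the substitutions H1304Y and D1306A. Every library also came from cells infected with an shRNA against Setdb1, which encodes a histone H3K9 methyltransferase, and puromycin selection at 1 µg/ml began 48 h after infection and lasted 3 days. Cells grew without feeders on gelatin, either in 2i medium (naïve) or in serum (primed), with 3 libraries for each rescue line in each medium. No library of Tet2 KO ESCs without a rescue construct and none with a non-targeting shRNA was analysed here, so the values describe the rescue lines after SETDB1 depletion only. Whether each line is a single clone or a pool, and which promoter drives the construct, is not given in the sources used here. The replicates are labelled as separate samples, but nothing states that they were separate cultures, so the p-values measure only the spread between these samples.

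Gene reads per library numbered 10090165 to 12357101 for the WT rescue and 11187137 to 20189214 for the mutant rescue in naïve ESCs. In primed ESCs they numbered 8066662 to 21335933 for the WT rescue and 8979339 to 11140836 for the mutant rescue. Tet2 had 1624 to 65641 reads per library, Tet1 981 to 6605, Tdg 435 to 1150 and Tet3 28 to 234, so counting error weighs most on Tet3. The expression values are the authors' variance-stabilised values on a log2 scale, in which a gene without reads sits at 3.81 in every library. Setdb1 itself averaged 7.82 ± 0.36 (naïve WT), 7.69 ± 0.31 (naïve mutant), 8.27 ± 0.11 (primed WT) and 8.11 ± 0.53 (primed mutant; SD, n = 3 each). In every group Setdb1 and Tet2 were both highest in replicate 3. Whether depletion was equal across libraries, and its part in the values below, was not tested. Reads from the construct and from the disrupted endogenous locus are both counted under Tet2 and were not separated. These are bulk libraries, in which a smaller share of cells expressing a gene and less of its RNA per cell cannot be told apart.

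TET enzymes use iron and 2-oxoglutarate to oxidise 5-methylcytosine to 5-hydroxymethylcytosine and then to 5-formylcytosine and 5-carboxylcytosine. TDG excises the formyl and carboxyl forms, and base excision repair then restores an unmodified cytosine, which completes an active route of DNA demethylation. Mouse ESCs are known to express Tet1 and Tet2, whereas Tet3 is best known from the oocyte and zygote and from differentiated tissues.

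The ESC markers were present in all libraries and their levels frame the values of the TET genes. The 8 ESC markers summed to between 40780 and 54388 normalised reads per library, with Nanog the most abundant, and Pou5f1 had 6936 to 18932 reads. Between media limma called 35.9% of all genes (adjusted p under 0.05) in the WT rescue and 35.2% in the mutant rescue, and the counts of called markers below are to be read against these shares. Of these 8 markers 4 were called lower in naïve ESCs in each line, Lin28a (-3.07 in the WT rescue and -3.38 in the mutant rescue), Utf1 (-2.18 and -2.25), Sall4 (-1.19 and -1.18) and Zfp42 (-0.94 and -1.29). Nanog was called higher in the WT rescue (0.57) and not in the mutant rescue (0.40), and the medians of the list were -0.57 and -0.67. The Zfp42 call in the WT rescue was lost without WT naïve replicate 1. That of Nanog was lost without WT naïve replicate 1 or 2 or WT primed replicate 1 or 3. The 7 markers of naïve ESCs summed to between 5693 and 18043 normalised reads, with Tcfcp2l1 the most abundant, and Tcfcp2l1 exceeded its primed level in naïve ESCs by 2.33 (log2) in the WT rescue and by 2.77 in the mutant rescue. Of these 7, limma called 3 higher and 1 lower in naïve ESCs in each line. The lower one was Nr0b1 (-0.78 and -0.85), and Klf2, Klf4 and Tbx3 were not called. Tcfcp2l1 also moved with the line: it was higher with WT TET2 by 0.68 for the mean over both media (limma, adjusted p = 0.0212, 0.00234 to 0.107 over the alternatives), by 0.46 in naïve and by 0.91 in primed ESCs. The call of the mean was lost without mutant naïve replicate 2, WT primed replicate 1 or 3 or mutant primed replicate 1 or 2. The primed difference was called only without WT primed replicate 2 (1.13, adjusted p = 0.0397) or mutant primed replicate 3 (1.07, adjusted p = 0.0344) and under the replicate block (adjusted p = 0.00808, and 0.00573 with centring by coding length). Its part in the differences of Tet1 and Tet2 between the lines was not tested. The 6 markers of primed or formative cells summed to between 719 and 6945 normalised reads, mostly from Dnmt3b, and Otx2 was lower in naïve ESCs by log2 differences of -2.75 and -3.29. Of the 5 tested, 3 were called lower and 1 higher in each line. The higher one was Lef1 (1.47 and 0.86), whose call in the mutant rescue was lost without mutant naïve replicate 2 or 3 or mutant primed replicate 1 or 3 (limma, adjusted p up to 0.159 over the alternatives).
The sums of some markers of other cell types also moved with the medium. Mesoderm markers had 33.9 to 45.4 summed normalised reads in naïve libraries, against 107 to 166 in primed ones. Most came from Eomes, which was called lower in naïve ESCs by -1.62 in the WT rescue and -1.39 in the mutant rescue. Fibroblast or feeder markers had 32.0 to 90.5 in naïve libraries, against 13.2 to 19.4 in primed ones, mostly from Thy1 (0.85 and 1.40, called in both lines), and Col1a2, Col3a1 and Postn had 0 reads in every library. Primitive endoderm (most abundant gene Sox17) summed to between 41.3 and 104, and of its 3 tested markers only Dab2 was called, lower in naïve ESCs (-1.47 and -0.85), a call lost in the mutant rescue without mutant naïve replicate 2. Trophoblast markers summed to between 1007 and 2148, mostly from Tcfap2c, which ESCs also express, while Cdx2, Elf5 and Hand1 had at most 46 reads each. Tcfap2c was called lower in naïve ESCs of the WT rescue (-0.55), a call lost without WT naïve replicate 3 or WT primed replicate 1 or 2, and was not called in the mutant rescue (-0.28). The part of these other cell types in the levels of Tet1, Tet2, Tet3 and Tdg was not tested.

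Tet2 holds the construct and was the member with the widest range. In the assembly mm9 it spans chr3:133126643-133207354 on the minus strand, with 9203 bases of annotated exon. Its expression in naïve ESCs was 12.73, 13.09 and 14.001 in the WT rescue and 10.60, 10.81 and 11.95 in the mutant rescue. In primed ESCs it was 14.81, 14.58 and 15.09 in the WT rescue and 12.50, 13.20 and 13.27 in the mutant rescue. Within each medium all WT libraries exceeded all mutant libraries, and within each line all primed libraries exceeded all naïve libraries. The group means fell in the order primed WT (14.83 ± 0.26), naïve WT (13.27 ± 0.65), primed mutant (12.99 ± 0.43) and naïve mutant (11.12 ± 0.72; SD, n = 3 each). The middle groups of that order overlap, and their means differ by less than the spread between replicates. Tet2 reads of the WT and the mutant rescue were not matched in level in either medium. By Western blot the paper found similar amounts of WT and mutant TET2 protein in the rescue lines, which these reads do not measure.

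Tet2 differed between media about as much as between rescue lines. Naïve minus primed, the log2 difference of Tet2 was -1.55 in the WT rescue (standard error 0.34, limma, adjusted p = 0.00207) and -1.87 in the mutant rescue (standard error 0.34, limma, adjusted p = 0.000515), with the naïve library lower in 3 of 3 replicate pairs of each line. Replicate pairs are libraries with the same replicate number, and only those of the rescue lines in naïve ESCs were taken as paired samples. These are 2.93-fold and 3.66-fold lower levels. The mean over both lines was -1.71 (limma, adjusted p = 1.94e-05). Each exact two-sided permutation test of 3 libraries against 3 gave p = 0.1, the smallest that such a design allows. Of all genes tested, 35.9% were called at an adjusted p under 0.05 between the media in the WT rescue, where 1 of the 4 members (Tet2) was called. In the mutant rescue 35.2% of genes and 2 of the 4 members (Tet2 and Tdg) were called, and for the mean over both lines 51.8% of genes and 1 member (Tet2) were called, so a call between media is common in these data. Among the 893 tested genes with a coding sequence over 4000 bases, 4.03% had a lower difference than Tet2 in the WT rescue and 0.896% in the mutant rescue. Whether the endogenous locus, the construct or both carry the difference between media cannot be told apart in these counts.

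Between the rescue lines, Tet2 was the member called, with 1 of 4 members called in each medium against 0.0987% of all genes tested in naïve ESCs and 0.254% in primed ESCs. The difference between WT and mutant rescue was 2.16 in naïve ESCs (standard error 0.34, limma, adjusted p = 0.0154) and 1.84 in primed ESCs (standard error 0.34, limma, adjusted p = 0.0297), with WT higher in 3 of 3 replicate pairs in each medium. The differences of single pairs spanned 2.06 to 2.28 (naïve) and 1.37 to 2.32 (primed). The interaction, naïve difference minus primed difference, was 0.32 (standard error 0.48, limma, adjusted p = 0.980), so a difference between the media was not shown. The mean over both media was 2.00 (95% confidence interval 1.49 to 2.50, limma, adjusted p = 0.000342), a comparison added after the data were seen, in which 3.1% of all genes tested and 1 of the 4 members were called. The naïve call was lost without WT naïve replicate 3 (1.79, adjusted p = 0.0809), mutant naïve replicate 1 (1.90, adjusted p = 0.132) or mutant naïve replicate 2 (2.00, adjusted p = 0.121). The primed call was lost without WT primed replicate 1 (1.84, adjusted p = 0.140), 2 (1.96, adjusted p = 0.0653) or 3 (1.71, adjusted p = 0.140), and without mutant primed replicate 1 (1.59, adjusted p = 0.151) or 2 (1.94, adjusted p = 0.0512). Over all alternatives the adjusted p ranged from 1.99e-06 to 0.238 for the naïve difference, from 2.65e-05 to 0.268 for the primed one and from 3.17e-08 to 0.0461 for the mean of both. Same-numbered naïve libraries deviated together, and under a replicate block the Tet2 difference in naïve ESCs had an adjusted p of 2.99e-06.

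The counts of genes called between the rescue lines were small and moved with single libraries. They were 14 in naïve ESCs (13 higher and 1 lower with WT TET2) and 36 in primed ESCs (29 higher and 7 lower). Under the replicate block the counts were 36 (naïve), 209 (primed) and 1683 (mean over both media), although same-numbered primed libraries were not taken as paired. Without WT naïve replicate 2 or 3 the naïve count was 9 or 6, and without mutant naïve replicate 1, 2 or 3 it was 5, 6 or 8. The primed count was 12, 18 or 16 without WT primed replicate 1, 2 or 3, and it was 14 or 82 without mutant primed replicate 1 or 3. For the mean over both media it was 440 (154 higher and 286 lower with WT TET2), and without WT naïve replicate 1, 2 or 3 it was 237, 761 or 255, without mutant naïve replicate 1, 2 or 3 it was 213, 98 or 699, without WT primed replicate 1 or 3 it was 76 or 101, and without mutant primed replicate 1, 2 or 3 it was 117, 194 or 1706. With all 12 libraries and no replicate block, Tet1, Tet3 and Tdg were not called in any of these comparisons of the lines, while under the replicate block Tet1 was called for the mean over both media (0.67, adjusted p = 0.0145). For the interaction limma called 0 genes (0%) and 0 of the 4 members, with 489 genes at an unadjusted p under 0.05, and it called 1 gene without WT naïve replicate 1.

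**Figure D1:**
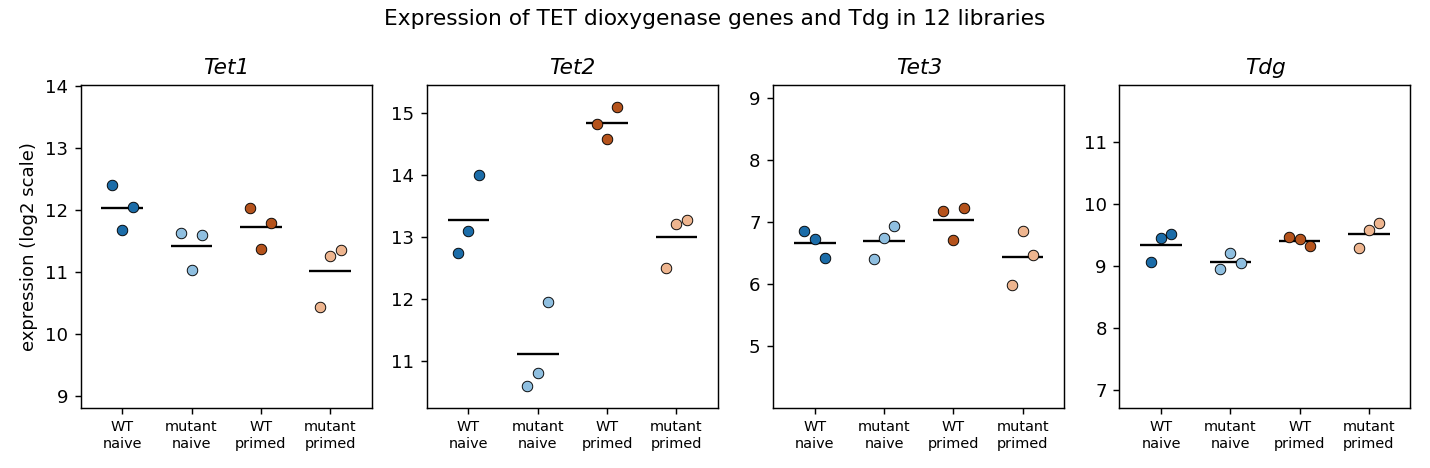
Expression of Tet1, Tet2, Tet3 and Tdg on the authors' variance-stabilised log2 scale in each library (dots) by rescue line and medium, with the group means as bars. Each panel spans the same number of log2 units, and only Tet2 has 4 groups of which those that share a medium or a line do not overlap.

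The catalytic mutant is named for a histidine and an aspartate of the iron-binding motif, and all 3 TET genes have a histidine, any residue and an aspartate at like places in the assembly mm9. In the Tet2 model used here the histidine is codon 1302 of 1919, so each number is 2 below the one in the name of the substitution. The motif was chosen among 4 of this form in Tet2 by its likeness to Tet1 and Tet3, and that the construct was altered at exactly these codons was not tested. Each stretch below lies within a single exon on the minus strand and is written from 5′ to 3′ of the coding strand, with the histidine and aspartate codons in capitals. They are shown because the expression table counts reads per gene and does not separate the altered construct from an intact Tet2 sequence, whereas the paralogues differ enough here to be told apart. In Tet1 it is chr10:62277184-62277252 in exon 11 of 13, in Tet2 chr3:133134304-133134372 in exon 8 of 10, and in Tet3 chr6:83323188-83323256 in exon 9 of 11 of the annotated transcripts. Over these 69 bases Tet1 is identical to Tet2 at 46 positions and Tet3 at 48.
Tet1: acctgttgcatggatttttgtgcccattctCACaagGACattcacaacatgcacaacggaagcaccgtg
Tet2: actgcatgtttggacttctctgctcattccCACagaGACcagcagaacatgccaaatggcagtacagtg
Tet3: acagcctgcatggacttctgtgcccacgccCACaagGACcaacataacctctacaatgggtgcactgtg

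Exact copies were searched for 75-base windows along 1 annotated transcript per gene, the one with the longest coding sequence. For Tet2 it has 5760 of the 9203 exon bases, so the other exon bases were not searched. Of 14295 windows in Tet1, 5686 in Tet2 and 10830 in Tet3, 0% had an exact copy within the BLAST matches elsewhere in the genome, which were searched with low-complexity sequence masked. The only partial copy of these 3 genes with at least 1000 aligned bases was one of Tet3 at chr4:78933213-78934477, with 1278 aligned bases at 87.32% identity.

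Tet1 is the founding member of the family and carries a CXXC domain that binds unmethylated CpG sites. It spans chr10:62267318-62361866 on the minus strand, with 14710 bases of annotated exon. Its expression in naïve ESCs was 12.39, 11.68 and 12.04 in the WT rescue and 11.63, 11.02 and 11.59 in the mutant rescue. In primed ESCs it was 12.03, 11.36 and 11.78 in the WT rescue and 10.43, 11.26 and 11.36 in the mutant rescue. In each medium all WT libraries lay above all mutant libraries, but only just: WT replicate 2 and mutant replicate 1 stood at 11.68 and 11.63 in naïve ESCs, and WT replicate 2 and mutant replicate 3 both rounded to 11.36 in primed ESCs. The naïve and primed libraries of each line overlapped. The group means fell in the order naïve WT (12.04 ± 0.36), primed WT (11.72 ± 0.34), naïve mutant (11.41 ± 0.34) and primed mutant (11.02 ± 0.51; SD, n = 3 each), and neighbours in that order overlap.

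Tet1 did not pass the threshold between the rescue lines in either medium. The difference was 0.62 in naïve ESCs (standard error 0.26, limma, adjusted p = 0.321) and 0.71 in primed ESCs (standard error 0.26, limma, adjusted p = 0.225), with the WT library higher in 3 of 3 replicate pairs in each medium. Exact two-sided permutation tests gave p = 0.1 in each medium, without use of the pairing of same-numbered naïve libraries. Averaged over both media, the log2 difference was 0.67 (95% confidence interval 0.28 to 1.05), a 1.59-fold higher level with WT TET2, and its adjusted p from limma was 0.0541. It passed the threshold without WT naïve replicate 2 (0.76, adjusted p = 0.0319), mutant naïve replicate 3 (0.71, adjusted p = 0.0482), WT primed replicate 2 (0.76, adjusted p = 0.0461) or mutant primed replicate 3 (0.75, adjusted p = 0.0183). The range over all alternatives was 0.0145 (under the replicate block, where it also passed) to 0.215. Between media Tet1 was higher in naïve ESCs by 0.31 in the WT rescue (limma, adjusted p = 0.359, 3 of 3 replicate pairs) and by 0.40 in the mutant rescue (limma, adjusted p = 0.244, 2 of 3 replicate pairs). The interaction of line and medium was -0.08 (limma, adjusted p = 0.994).
These Tet1 differences depended on single libraries, although within a medium or a line none was called with a library left out. The primed difference between the lines was 0.41 without mutant primed replicate 1. Between media the WT rescue gave 0.13 without WT naïve replicate 1 or WT primed replicate 2 and 0.49 without WT naïve replicate 2, and the mutant rescue gave 0.10 without mutant primed replicate 1.

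The median difference between the rescue lines varied with the coding length of the genes. Tet1, Tet2 and Tet3 have coding sequences of 6117, 5757 and 5004 bases, and Tdg has 1263. Among genes with a coding sequence of up to 500 bases (1368 genes) the median difference between WT and mutant rescue was -0.25 in naïve and -0.29 in primed ESCs. It was 0.03 and 0.01 for 1000 to 2000 bases (4957 genes), and 0.20 and 0.38 for over 4000 bases (893 genes). Tet1 exceeded 95.2% of these 893 genes in naïve and 91.9% in primed ESCs, and Tet2 exceeded 99.9% in each. Tet3, at -0.03 and 0.61, exceeded 23.0% and 84.9% of them. The medians of these 893 genes in single naïve libraries, after centring over the 12 libraries, overlapped between the lines (0.24, -0.12 and 0.08 with WT, -0.11, -0.38 and 0.04 with mutant TET2, in replicate order). Within each same-numbered naïve pair, however, the WT library was higher. In primed ESCs they did not overlap (0.35, 0.02 and 0.28 against -0.33, -0.06 and -0.03).
When each library was centred on genes of like coding length, an alternative chosen after seeing the data, the Tet1 difference was 0.41 in naïve and 0.32 in primed ESCs (limma, adjusted p = 0.387 and 0.514). The mean over both media moved from 0.67 to 0.37 (limma, adjusted p = 0.124). Between media the same centring moved Tet1 past the threshold in the WT rescue, where it was higher in naïve ESCs by 0.50 (limma, adjusted p = 0.0258, with up to 0.752 over the alternatives), and for the mean over both lines, by 0.45 (limma, adjusted p = 0.00390, with up to 0.311 over the alternatives). The Tet2 difference between the lines was 1.94 in naïve ESCs (limma, adjusted p = 0.0147) and 1.45 in primed ESCs (limma, adjusted p = 0.0579) after the centring, so the primed call was lost. What made the lines differ along gene length was not tested.

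**Figure D2:**
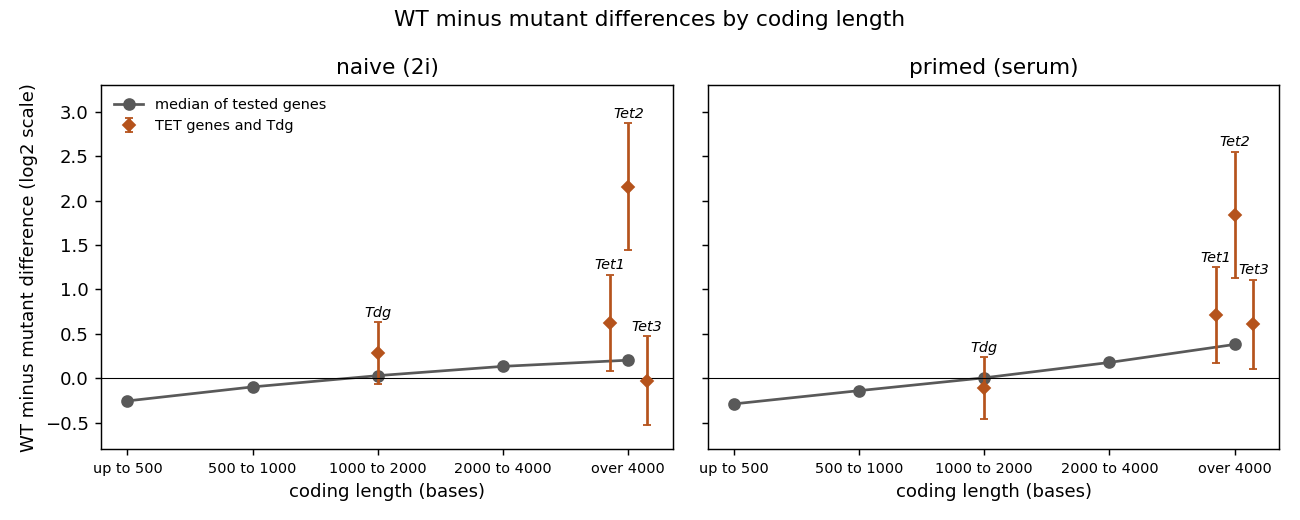
Log2 difference between WT and mutant rescue against the coding length of the gene, in naïve and primed ESCs. Lines join the medians of genes of like length and diamonds mark Tet1, Tet2, Tet3 and Tdg with 95% confidence intervals, and the median over genes longer than 4000 bases is 0.20 in naïve and 0.38 in primed ESCs.

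Tet3 was the least expressed member in every library. It spans chr6:83312367-83391672 on the minus strand, with 11086 bases of annotated exon. Its expression in naïve ESCs was 6.86, 6.73 and 6.42 in the WT rescue and 6.41, 6.75 and 6.93 in the mutant rescue. In primed ESCs it was 7.19, 6.71 and 7.24 in the WT rescue and 5.99, 6.85 and 6.46 in the mutant rescue. All 4 groups overlapped, and their means ran from 7.04 ± 0.29 (primed WT) through 6.70 ± 0.27 (naïve mutant) and 6.67 ± 0.23 (naïve WT) to 6.44 ± 0.43 (primed mutant; SD, n = 3 each), with neighbours within their spread. The difference between the lines was -0.03 in naïve ESCs (limma, adjusted p = 0.970, WT higher in 1 of 3 replicate pairs) and 0.61 in primed ESCs (limma, adjusted p = 0.246, WT higher in 2 of 3). Between media it was -0.37 in the WT rescue (limma, adjusted p = 0.231) and 0.26 in the mutant rescue (limma, adjusted p = 0.418), naïve minus primed, and naïve was higher in 1 of 3 and 2 of 3 replicate pairs. With single libraries left out the Tet3 differences spanned -0.17 to 0.10 (lines, naïve), 0.38 to 0.82 (lines, primed), -0.54 to -0.25 (media, WT rescue) and 0.04 to 0.47 (media, mutant rescue). The last was smallest without mutant primed replicate 1 and largest without mutant primed replicate 2. The interaction of line and medium for Tet3 was -0.64 (standard error 0.34, limma, adjusted p = 0.976).

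Tdg acts after the TET enzymes, and of the members its values had the narrowest range over all libraries. It spans chr10:82092573-82113544 on the plus strand, with 5374 bases of annotated exon. Its expression in naïve ESCs was 9.07, 9.45 and 9.52 in the WT rescue and 8.94, 9.20 and 9.05 in the mutant rescue. In primed ESCs it was 9.47, 9.43 and 9.32 in the WT rescue and 9.29, 9.58 and 9.69 in the mutant rescue. Among groups that share a line or a medium, only the naïve and primed libraries of the mutant rescue did not overlap. The group means fell in the order primed mutant (9.52 ± 0.20), primed WT (9.41 ± 0.08), naïve WT (9.34 ± 0.24) and naïve mutant (9.07 ± 0.13; SD, n = 3 each), and neighbours in that order overlap.

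In the mutant rescue the naïve level of Tdg lay under the primed level by a log2 difference of -0.45, which is 1.37-fold (standard error 0.16, limma, adjusted p = 0.0415, naïve lower in 3 of 3 replicate pairs; exact permutation test, p = 0.1). In the WT rescue the difference was -0.06 (limma, adjusted p = 0.798, naïve lower in 1 of 3 pairs). The media differences of the lines were not shown to differ, since the test of that difference gave 0.39 (standard error 0.23, limma, adjusted p = 0.976). The call in the mutant rescue was lost without mutant naïve replicate 1 (-0.39, adjusted p = 0.140), 2 (-0.52, adjusted p = 0.0510) or 3 (-0.44, adjusted p = 0.0776) and without mutant primed replicate 2 (-0.42, adjusted p = 0.121) or 3 (-0.37, adjusted p = 0.108), and the range over all alternatives was 0.0223 to 0.140. That call was also lost under the replicate block (limma, adjusted p = 0.0683), without a filter (0.0592), without a variance trend (0.0508) and in the 6 libraries alone (0.0808). The mean over both lines was -0.26 (limma, adjusted p = 0.0742, with 0.0351 to 0.187 over the alternatives). It passed the threshold without WT naïve replicate 3 (-0.30, adjusted p = 0.0490) or mutant primed replicate 1 (-0.31, adjusted p = 0.0351). Between the rescue lines Tdg differed by 0.28 in naïve ESCs (limma, adjusted p = 0.461, WT higher in 3 of 3 pairs) and by -0.11 in primed ESCs (limma, adjusted p = 0.775, WT higher in 1 of 3 pairs). With single libraries left out these spanned 0.19 to 0.42 and -0.22 to -0.03, the latter with its ends without mutant primed replicate 1 and 3.

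Reads of Tdg are less sure of their origin than those of the TET genes, because mm9 holds 4 near-identical copies of at least 1000 aligned bases of its transcript. They lie at chr10:41772360-41775242 (2886 aligned bases, 99.27% identity, annotated as the pseudogene Gm9855), chr15:82346686-82349711 (3026 bases, 98.64%, Gm5806), chr19:33746768-33748526 (1762 bases, 99.55%, within Lipo1) and chr7:83388071-83391005 (2935 bases, 99.32%, no annotated gene). Of the 3428 windows of 75 bases along the Tdg transcript, 2513 (73.31%) had an exact copy elsewhere in the genome, and so did 976 of the 1189 windows (82.09%) of its coding sequence. One such window is shown, on the plus strand at chr10:82101593-82104106, where it spans 2439 intron bases in Tdg and is found without that gap in the copies on chromosomes 10, 15 and 7.
Tdg: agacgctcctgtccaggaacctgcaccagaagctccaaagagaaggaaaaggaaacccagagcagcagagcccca
Where a read matched several places equally well, the authors kept a random choice among them. Gm5806 had 155 to 438 reads per library, and its naïve minus primed difference in the mutant rescue was -0.42, without overlap (limma, adjusted p = 0.0892, naïve lower in 3 of 3 replicate pairs; exact permutation test, p = 0.1), beside -0.45 for Tdg. With single libraries left out, the Gm5806 difference in the mutant rescue spanned -0.52 to -0.28. In the WT rescue it was -0.07, and 0.046 without WT naïve replicate 1 and 0.011 without WT primed replicate 2. Lipo1, which holds another copy, gave 0.34 in the WT rescue and -0.28 in the mutant rescue, where its naïve and primed libraries overlapped (limma, adjusted p = 0.292 and 0.407, naïve higher in 3 of 3 and 0 of 3 replicate pairs). With single libraries left out these spanned 0.11 (without WT naïve replicate 3) to 0.54 and -0.45 to 0.01 (without mutant primed replicate 3). How many of the reads of Tdg, Gm5806 and Lipo1 came from each locus was not tested. Tdg also shares 367 exon bases with Glt8d2 on the opposite strand, in libraries that kept no strand information, but Glt8d2 had at most 6 reads in any library.

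Levels of different genes were compared as normalised reads per kb of annotated exon. Tet2 averaged 3186 ± 567 in primed and 1153 ± 552 in naïve ESCs of the WT rescue, and 906 ± 244 and 261 ± 143 in the mutant rescue (SD, n = 3 each). Tet1 averaged 232 ± 52.5 and 290 ± 71.9 in the WT rescue and 145 ± 46.1 and 187 ± 40.9 in the mutant rescue, in the same order of media. Tdg averaged 121 ± 7.06 and 117 ± 19.7 in the WT rescue and 132 ± 18.8 and 94.8 ± 9.17 in the mutant rescue. For Tet3 the means were 9.67 ± 2.26 and 6.91 ± 1.38 in the WT rescue and 5.73 ± 2.29 and 7.11 ± 1.66 in the mutant rescue. On this scale the order Tet2, Tet1, Tdg, Tet3 held in 10 of 12 libraries. Tet1 led in mutant naïve replicate 1, and Tdg exceeded Tet1 in mutant primed replicate 1. The 9203 exon bases used for Tet2 are those of the endogenous gene. Which of them the construct carries is not given in the sources used here, so neither length need fit its reads. With Tet2 per kb of coding sequence (265) and Tet1 per kb of exon (213), Tet2 exceeded Tet1 in mutant naïve replicate 1. Per kb of coding sequence Tet1 and Tdg changed places in several libraries, with Tet2, Tet1, Tdg, Tet3 in 5 libraries and Tet2, Tdg, Tet1, Tet3 in 5. The order was Tet1, Tdg, Tet2, Tet3 in mutant naïve replicate 1 and Tdg, Tet1, Tet2, Tet3 in mutant naïve replicate 2, while Tet3 was last in all 12 on both scales. Tet1 exceeded Tet3 by 19.0-fold to 52.8-fold per kb of exon, and Tdg exceeded Tet3 by 10.1-fold to 32.0-fold. The ratio of Tet2 to Tet1 ran from 0.778 to 15.9 across the libraries, with group means of 13.98 (primed WT), 6.35 (primed mutant), 4.18 (naïve WT) and 1.40 (naïve mutant). Per kb of coding sequence the ratio ran from 0.517 to 10.6, with group means of 9.29, 4.22, 2.78 and 0.931 in that order.

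The make-up of the TET transcripts was taken as each gene's share of the summed reads per kb of exon. For Tet2 this used the exon length of the endogenous gene, which the construct need not match, so the sizes of the shares depend on it. The mean share of Tet2 fell from primed WT (92.9%) through primed mutant (85.9%) and naïve WT (77.7%) to naïve mutant (55.4%). The means of the middle groups stood in the opposite order to their mean Tet2 levels. These groups overlapped in both share and level, so their order was not resolved. In naïve ESCs the share of Tet2 was 66.5%, 80.5% and 86.0% in the WT rescue and 43.2%, 56.6% and 66.3% in the mutant rescue. In primed ESCs it was 91.4%, 93.5% and 93.8% in the WT rescue and 86.8%, 85.5% and 85.4% in the mutant rescue. No pair of groups that shared a line or a medium overlapped, although WT replicate 1 (66.5%) and mutant replicate 3 (66.3%) were close in naïve ESCs. The share was higher with WT TET2 by 22.3 percentage points in naïve and by 7.02 points in primed ESCs. Naïve minus primed, the difference was -15.3 points in the WT rescue and -30.5 points in the mutant rescue. Exact two-sided permutation tests, which did not use the pairing of naïve libraries, gave p = 0.1 for each, the smallest possible without pairing. Without WT naïve replicate 1 the difference between media in the WT rescue was -9.66 points (exact permutation test, p = 0.1), and with single libraries left out it spanned -19.4 to -9.66 points with exact p-values of 0.1 to 0.2. Per kb of coding sequence the 4 differences were 24.6, 9.50, -19.6 and -34.6 points. Tet1 made up 21.8% (naïve WT), 43.0% (naïve mutant), 6.80% (primed WT) and 13.6% (primed mutant) of the total on average, and Tet3 made up 0.536%, 1.64%, 0.280% and 0.536%. On average the intact Tet1 thus had its highest share in the naïve mutant rescue. The Tet2 share there was made of the mutant construct and any reads of the disrupted locus. The Tet1 shares of the naïve groups overlapped, at 32.8% in WT replicate 1 and 32.3% in mutant replicate 3. Mean Tet1 expression was lower in the naïve mutant rescue (11.41) than in the naïve (12.04) and primed (11.72) WT rescue.

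**Figure D3:**
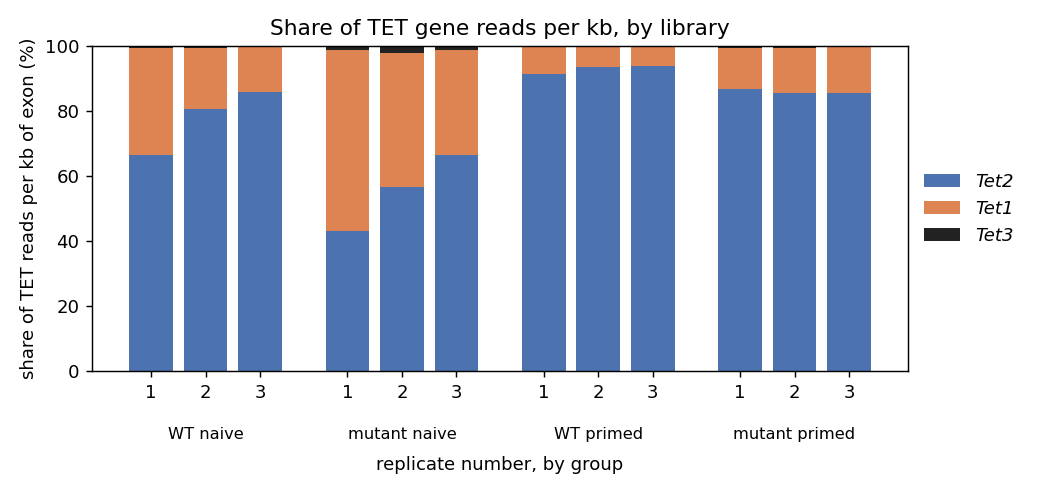
Share of Tet1, Tet2 and Tet3 in the summed TET reads per kb of annotated exon (percent) in each of the 12 libraries. Tet2 takes 85.4% to 93.8% in primed ESCs and 43.2% to 86.0% in naïve ESCs.

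The genes whose pattern was most like each member were found by the root mean square difference of centred log2 values over the 12 libraries. Around Tet1 they were Pou2f1 (0.16), Smg1 (0.17) and Vps13b (0.17), against a median of 0.60 over all genes tested. Around Tet3 they included Tep1 (0.13) and Hivep2 (0.16), against 0.47, and around Tdg they were Gm5551 (0.08), Eri1 (0.08) and Pspc1 (0.09), against 0.39. Tet2 had no close neighbour: the nearest were Sfmbt2 (0.63), Krt19 (0.72) and Dnmt3b (0.79), against a median of 1.42. Because Sfmbt2 was picked by this likeness over the same 12 libraries, its differences and calls below restate that choice and are no separate test. Sfmbt2 followed Tet2 between media, with differences of -1.77 in the WT rescue and -1.61 in the mutant rescue, but it differed less between the lines, by 0.76 in naïve and 0.91 in primed ESCs, without a call (limma, adjusted p = 0.314 and 0.204, WT higher in 3 of 3 replicate pairs in each). The naïve difference spanned 0.46 (without WT naïve replicate 3) to 1.06 (without mutant naïve replicate 3) with single libraries left out. Its mean over both media was 0.84 and was called (limma, adjusted p = 0.0452, 0.00216 to 0.193 over the alternatives). That call was lost without WT naïve replicate 3, mutant naïve replicate 1 or 2, any WT primed replicate or mutant primed replicate 1. In primed ESCs it was called only under the replicate block (adjusted p = 0.0224).

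Among 5 genes for writing or maintaining the methyl group that TET proteins oxidise, cofactors included, 3 were lower in naïve ESCs, the direction of Tet2. Of these 5 genes, limma called 3 lower and 0 higher in naïve ESCs in each line (also 0 higher at an unadjusted p under 0.05). The median differences were -0.91 in the WT rescue and -1.30 in the mutant rescue, against 0.01 and -0.01 over all genes tested, of which 35.9% and 35.2% were called. The called genes were Dnmt3l (-5.18 and -5.17), a cofactor without catalytic activity, and the de novo methyltransferases Dnmt3b (-2.21 and -2.45) and Dnmt3a (-0.91 and -1.30). The maintenance genes Dnmt1 (0.03 and 0.29) and Uhrf1 (0.09 and 0.23) were not called. IAPEz-int, the internal region of IAP retrotransposons and a target of SETDB1 silencing, went the other way from Tet2 between media but the same way between the lines. Its log2 values were 17.54, 17.46 and 17.69 (naïve WT), 16.32, 16.69 and 16.12 (naïve mutant), 16.15, 16.56 and 16.90 (primed WT) and 14.11, 14.54 and 15.68 (primed mutant).

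The other genes of the demethylation route were described from 6 lists, that of the DNA methylation genes above among them. Between WT and mutant rescue limma called 0 of their 70 tested genes in naïve and 0 in primed ESCs, with 8 and 12 at an unadjusted p under 0.05, where 1882 and 2295 of all 14185 genes were. These shares are near those over all genes. For the mean over both media, added after the data were seen, Apobec2 was called lower with WT TET2 (-0.56, limma, adjusted p = 0.0435). This call was not tried under the alternatives. No other gene of the lists was called in that comparison, where 3.1% of all genes were called, a larger share than in the lists. Base excision repair includes the glycosylases that can act beside TDG. Of its 20 genes, Tdg included, 4 were called higher and 0 lower (1 at an unadjusted p under 0.05) in naïve than in primed ESCs of the WT rescue, and 3 higher and 4 lower in the mutant rescue, with medians of 0.15 and 0.11, where 35.9% and 35.2% of all genes were called. The uracil glycosylase Smug1 was higher by 0.85 and 0.80. The glycosylase Neil2 was higher by 0.83 and 0.97, and its call in the WT rescue was lost without WT primed replicate 3 (0.69, adjusted p = 0.0522). Of the genes called lower in the mutant rescue, Apex2 (-0.61) and Apex1 (-0.51) had the largest differences. The call of Apex1 was lost under several alternatives. In the WT rescue the count of genes called higher was 2 without WT naïve replicate 3 or WT primed replicate 1 and 1 without WT primed replicate 3, and the count called lower was 1 without WT naïve replicate 3. In the mutant rescue the count called lower was 1 without mutant naïve replicate 1 or 2 or mutant primed replicate 2, and 2 without mutant primed replicate 1. That count was also 1 without a filter or in the 6 libraries alone, and 2 without a variance trend, with quantile normalization or under the replicate block. In the WT rescue the count called lower was 1 without a filter, with the stricter filter, without a variance trend and with median centring, quantile normalization or centring by coding length.

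Deaminases and GADD45 proteins have been linked to other routes of demethylation. Of 7 such genes, 3 were called higher and 2 lower in naïve ESCs in each line, with medians of 0.31 in the WT rescue and 0.56 in the mutant rescue, where 35.9% and 35.2% of all genes were called. Apobec2 (1.89 and 1.62) and Apobec3 (1.40 and 1.39) were higher, while Gadd45a (-1.72 and -1.77) was lower. With the stricter filter the count called lower was 1 in each line.

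Among 14 partners and recruiters of TET proteins, 12 were tested, and Cxxc4 and Wt1 had too few reads. In the WT rescue 2 were called higher and 4 lower in naïve ESCs, and in the mutant rescue 1 was called higher and 5 lower, with medians of -0.33 and -0.37. Of all genes 35.9% and 35.2% were called. The RNA-binding protein Lin28a was lower by -3.07 and -3.38 and the zinc finger protein Zfp281 by -0.82 and -1.44, whereas the naïve pluripotency factor Prdm14 was higher by 1.64 and 1.63. The count called higher in the WT rescue was 1 without WT naïve replicate 1, WT primed replicate 1 or WT primed replicate 3, and in the mutant rescue it was 2 without mutant naïve replicate 3. The WT count was also 1 without a filter and with quantile normalization. Another list held 7 genes whose proteins have been linked to the reading of modified cytosine, and their binding was not tested here. Of these, limma called 0 higher and 3 lower in each line (0 and 1 higher at an unadjusted p under 0.05). The medians were -0.07 and -0.17, and the share called lies near those over all genes. In the mutant rescue 1 was called higher without mutant primed replicate 3, without a filter and with centring by coding length. The lower ones were Hmces, listed as 8430410A17Rik (-1.23 and -1.14), Zbtb2 (-1.06 and -1.20) and Mbd3 (-1.05 and -1.11).

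TET enzymes need 2-oxoglutarate, are enhanced by ascorbate and are inhibited by succinate. A list of 19 genes covered the supply, use or transport of these, so its counts give no direction of supply. In the WT rescue 11 were called higher and 1 lower, and in the mutant rescue 7 higher and 1 lower. The medians were 0.46 and 0.38, where 35.9% and 35.2% of all genes were called. The mitochondrial isocitrate dehydrogenase Idh2, which makes 2-oxoglutarate, was higher by 1.39 and 1.44, and the serine synthesis enzyme Psat1, which also yields it, by 0.96 and 0.71. The ascorbate transporter Slc23a1 was lower by -1.16 and -0.91, and its call in the mutant rescue was lost without mutant naïve replicate 1 (-0.69, adjusted p = 0.0514), which left 0 genes of the list called lower there. The count called higher in the WT rescue was 6 without WT primed replicate 1 or WT primed replicate 3. In the mutant rescue it was 3 without mutant naïve replicate 1 or mutant primed replicate 2, 4 without mutant naïve replicate 2 and 11 without mutant naïve replicate 3. It was also 4 under the replicate block and in the 6 libraries alone, and 11 with quantile normalization. With the stricter filter the count called lower was 0 in each line.

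The promoters of the members all had more CpG dinucleotides than the median promoter. In the 300 bases around the annotated start (RefSeq, GRCm38.p6), Tet1 had 17 CpG dinucleotides, Tet2 57, Tet3 22 and Tdg 26, against a median of 7 over 32851 promoters. Fewer CpG dinucleotides were found in 68.59%, 99.85%, 76.9% and 83.13% of all promoters, in that order of genes. Whether the construct carries any of the Tet2 promoter is not given in the sources used here.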

How the data were processed

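Poly(A)-selected RNA-seq libraries, 3 for each of 4 groups, were grouped by their labels. Per the submitters' processing notes, reads were trimmed with Trim Galore 0.3.3 and aligned to mm9 with TopHat2 2.0.9. The authors used DESeq2 and deposited log2-scale values, variance-stabilised and scaled by their size factors. Inverting the transformation returned whole reads (tolerance 0.05) and so the depth of each library, between 8066662 and 21335933 gene reads. Reads are not independent molecules, so counts cover counting error only.

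Genes with a mean at least 1 above the lowest value were fitted with limma 3.58.1 (R 4.3.3) in one fit of 12 libraries and 4 groups, with a variance trend and Benjamini-Hochberg adjustment over 14185 genes, and called at an adjusted p under 0.05. The fit was tested on simulated data, and no result of that test is used here. Of the 7 comparisons, the means over both media and over both lines were added after seeing the data. Single values were also compared by exact two-sided permutation tests, for which 3 against 3 cannot go below 0.1. These tests did not use the pairing of same-numbered libraries. Shares of TET reads used exon lengths, with coding lengths or no lengths as alternatives. Copies of 1 transcript per gene, that with the longest coding sequence, were searched with BLAST 2.17.0 and exact 75-base matches. Promoter sequences came from RefSeq (GRCm38.p6). Python 3.11.15, numpy 2.4.6, pandas 2.3.3, scipy 1.17.1 and matplotlib 3.10.9 were used.

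Members, 6 gene lists (72 genes) and 7 marker lists (40 genes) were chosen with earlier results of these data known. Named list genes are those called with the largest differences, at most 4 per list and comparison, and genes among the 3 nearest to each member. Gm5806, Lipo1, Glt8d2, Nr0b1, Lef1 and the genes named as not called were named, and Tcfcp2l1 was compared between the lines, after their values were seen. The levels of Setdb1 were also added after they were seen. Under older symbols 3 genes were matched and 0 were absent. Alternatives were no filter and a stricter one (3 above the lowest value), no variance trend, median centring, quantile normalization, a replicate block, only the 6 libraries of a comparison, each library left out, and recovered reads fitted with limma-voom. Centring by coding length in 20 classes (14037 genes with a model), alone or with the replicate block, was chosen after seeing the data. Same-numbered libraries were taken as paired where every such pair had a correlation of deviations over 0.1. This held for the rescue lines in naïve ESCs (lowest 0.30, mean 0.42), with the pairing taken from the replicate numbers of the labels. Other experiments of the study were not analysed here.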

Additional observations from a re-analysis of the deposited data

How the results depend on the processing

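Tet3 had the fewest reads (28 in the lowest library), and how many reads of Tdg came from each locus was not tested. In each group of values below the cause was not tested. Of 660 alternative values of the members, shares and counts, 572 kept their direction and side of the threshold, or stayed close to the value as deposited. For genes named from the lists or beside a member it was 1413 of 1568, with 147 calls lost, 5 gained and 3 values without a call reversed, and for counts of the lists 726 of 768. Every alternative kept the direction of each Tet2 share difference and of Tet2 between the lines and between the media.

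The naïve count of genes called between the lines was 5 with the stricter filter, 7 with centring by coding length, 9 in the 6 libraries alone and 5 to 14 with single libraries left out. The primed count was 23 with the stricter filter, 18 in the 6 libraries alone and 12 to 82 with libraries left out. The interaction count was 12 without a filter and 0 to 1 with libraries left out. The count for the mean over both media was 83 without a filter, 224 with centring by coding length and 76 to 1706 with libraries left out.

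Under a replicate block the 3 counts between the lines were 36 (naïve), 209 (primed) and 1683 (both media), and 108 (primed) when combined with centring by coding length. Same-numbered libraries were not paired in primed ESCs (lowest correlation -0.065, mean 0.0950) or between media (means 0.116 and -0.0906). Under the block the Tet1 mean over both media was 0.67 (adjusted p = 0.0145) and Tdg in the mutant rescue was -0.45 (adjusted p = 0.0683).

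For Tet1, centring by coding length, with or without the replicate block, gave 0.50 between media in the WT rescue, 0.45 for both lines and an interaction of 0.094. Leaving out libraries gave 0.52 to 0.76 for the mean over both media and an interaction of -0.28 to 0.21, positive at 0.098, 0.024, 0.0050, 0.068 and 0.21.

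For Tet2, the naïve difference of 2.16 lost its call without a filter (adjusted p = 0.238) and in the 6 libraries alone (0.0526), and ranged from 1.79 to 2.57 with libraries left out. The primed difference of 1.84 lost its call without a filter (adjusted p = 0.268) and, at 1.45, with centring by coding length (0.0579), and ranged from 1.59 to 1.98 with libraries left out. The interaction was -0.043 without WT naïve replicate 3 and ranged to 0.73.

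For Tet3, the naïve difference between the lines was 0.042 with quantile normalization and -0.17 to 0.10 with libraries left out (0.098 and 0.091 were positive). Centring by coding length, with or without the replicate block, gave -0.0095 for the mean over both media and 0.038 between media for both lines, which ranged from -0.17 to 0.05 with libraries left out (positive at 0.0061, 0.016 and 0.048).

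For Tdg, the WT rescue gave 0.078 between media without WT naïve replicate 1, in a range of -0.15 to 0.08. The mutant rescue value of -0.45 had an adjusted p of 0.0592 without a filter, 0.0508 without a variance trend and 0.0808 in the 6 libraries alone, and ranged from -0.57 to -0.37 with libraries left out. The mean over both lines, -0.26, was called at -0.28 with median centring, quantile normalization and centring by coding length (adjusted p = 0.0471, 0.0463 and 0.0414), and ranged from -0.31 to -0.19 with libraries left out.

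The naïve minus primed difference of Gm5806 in the WT rescue ranged from -0.21 to 0.046 with libraries left out (positive at 0.046 and 0.011), and that of Lipo1 in the mutant rescue was 0.010 without mutant primed replicate 3. The Sfmbt2 mean over both media, 0.84, had an adjusted p of 0.193 without a filter, 0.0545 without a variance trend, 0.0507 with limma-voom and, at 0.66, 0.130 with centring by coding length. Under the replicate block its primed difference of 0.91 had an adjusted p of 0.0224. For Tcfcp2l1 the mean over both media, 0.68, had an adjusted p of 0.107 without a filter, and under the replicate block its primed difference of 0.91 had one of 0.00808.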
